A study of Mus musculus with 4 samples.

Results

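The 10 genes described here encode heat shock proteins and their partners that work in the cytosol, nucleus or mitochondrion. They were chosen by name: Hspa1a, Hspa1b, Hspa8, Hspa9, Hsph1, Dnajb1, Hspb1, Hspd1, Bag3 and Hsp90aa1. All 10 had at least 1 probe set assigned to that gene alone, out of 22180 named genes measured. Expression was measured in primary hepatocytes, liver parenchymal cells freshly isolated from 2-month-old male mice. The mice were either wild type (WT) or Chrebp knockout (KO). Chrebp, listed on the array as Mlxipl, encodes a sugar-responsive transcription factor that drives glycolysis and fat synthesis genes. The cells of all 4 groups were kept in serum-free medium for 16 h, with 25 mM fructose or without it (control). Each combination of genotype and medium was measured on 1 array, so no spread between replicates exists and no test, standard error or p-value can be given. Which part of Chrebp was deleted, in which cells of the mouse, and how many mice gave cells to an array are not stated in the labels. Mlxipl itself had log2 levels of 8.08 without and 8.43 with fructose in WT, and 7.42 and 7.37 in KO, so it was 1.58-fold and 2.09-fold lower in KO in the respective media. Since the deleted part is not stated, probes outside it may still give signal, and this is no full check of the labels.

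Heat shock proteins are molecular chaperones that hold, fold or refold other proteins. HSP70 proteins bind exposed hydrophobic stretches in a cycle driven by ATP, HSP40 (DNAJ) proteins deliver clients and start ATP hydrolysis, and nucleotide exchange factors of the HSP110 and BAG families end the cycle. HSP90 proteins complete the folding of kinases and receptors, small heat shock proteins hold unfolded clients without ATP, and the mitochondrial chaperonin folds imported proteins in a closed chamber. Misfolded protein in the cytosol frees heat shock factor 1 (HSF1), which binds heat shock elements, arrays of GAA units in alternating orientation, and activates many of these genes. Misfolded protein in the endoplasmic reticulum (ER) acts through other factors, which raise a separate set of ER chaperones through elements such as the ER stress element.

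The start regions of the genes differed in these elements, and a few that hold them are shown. Dnajb1 and some ER chaperone genes, such as Dnajb9 and Dnajb11, held none of the sequences searched and are not told apart by them. Sequences are from RefSeq, build GRCm38.p6, and the windows printed are the 250 bases before the annotated start site, 5′ to 3′ on the gene's strand. Capitals mark matches to GAANNTTC or TTCNNGAA in the heat shock genes. In the ER genes they mark the ER stress element, CCAAT and CCACG separated by any 9 bases, on either strand. Hspa1a (chr17:34972157-34972406, minus strand) and Hspa1b (chr17:34959239-34959488, minus strand) are shown because their windows are nearly the same. Hsph1 (chr5:149636337-149636586, minus strand) and Hspb1 (chr5:135887669-135887918, plus strand) are shown as members with other arrangements of the units. Hspa5 (chr2:34771840-34772089, plus strand) and Hsp90b1 (chr10:86705445-86705694, minus strand) encode the ER members of the HSP70 and HSP90 families.
Hspa1a: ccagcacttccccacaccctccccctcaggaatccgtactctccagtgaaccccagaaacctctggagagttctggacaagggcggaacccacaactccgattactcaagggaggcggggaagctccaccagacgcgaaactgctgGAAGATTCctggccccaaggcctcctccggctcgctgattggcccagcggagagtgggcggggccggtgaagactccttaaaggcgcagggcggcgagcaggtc
Hspa1b: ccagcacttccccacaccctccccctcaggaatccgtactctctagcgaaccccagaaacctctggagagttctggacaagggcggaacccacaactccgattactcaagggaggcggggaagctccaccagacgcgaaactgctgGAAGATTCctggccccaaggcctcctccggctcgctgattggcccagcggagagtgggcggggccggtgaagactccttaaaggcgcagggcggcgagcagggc
Hsph1: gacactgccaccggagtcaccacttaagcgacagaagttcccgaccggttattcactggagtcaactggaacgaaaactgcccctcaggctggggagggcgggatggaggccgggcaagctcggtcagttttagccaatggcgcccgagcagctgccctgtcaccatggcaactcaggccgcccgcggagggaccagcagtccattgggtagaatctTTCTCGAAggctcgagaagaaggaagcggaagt
Hspb1: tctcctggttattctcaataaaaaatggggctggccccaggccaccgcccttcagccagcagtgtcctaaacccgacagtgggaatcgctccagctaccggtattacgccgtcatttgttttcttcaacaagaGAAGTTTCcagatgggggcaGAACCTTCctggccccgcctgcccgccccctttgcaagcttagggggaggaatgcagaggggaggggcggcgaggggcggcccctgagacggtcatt
Hspa5: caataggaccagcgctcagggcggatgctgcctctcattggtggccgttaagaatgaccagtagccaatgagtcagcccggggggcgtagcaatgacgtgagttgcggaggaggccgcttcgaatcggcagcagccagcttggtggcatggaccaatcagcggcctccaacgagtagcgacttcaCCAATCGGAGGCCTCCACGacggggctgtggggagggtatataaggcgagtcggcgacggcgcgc
Hsp90b1: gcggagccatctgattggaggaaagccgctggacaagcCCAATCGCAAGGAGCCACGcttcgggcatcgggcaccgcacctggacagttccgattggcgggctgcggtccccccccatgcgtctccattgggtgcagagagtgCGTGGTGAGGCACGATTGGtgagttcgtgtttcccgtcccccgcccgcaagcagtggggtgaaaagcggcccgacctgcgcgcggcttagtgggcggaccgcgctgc

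The windows of Hspa1a and Hspa1b were identical at 247 of 250 bases (98.8%). Counted from the window's 5′ end, with the Hspa1a base first, the differences were C44T, T47C and T249G. Both carried 1 head-to-head pair of units, gaagattc, 104 bases before the start site. Hspb1 carried 2 such pairs, 117 and 97 bases before its start. Hspd1 and Hsph1 had the longer arrangement of 3 units, GAANNTTC followed by NNGAA, on either strand. In Hspd1 the stretch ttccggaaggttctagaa (chr1:55088059-55088076) holds 2 overlapping 3-unit matches, 1 on each strand. The longer Hsph1 match is ttctggaaagttc (chr5:149636288-149636300), which lies just after the start site. Bag3 had gaagtttc 42 bases after its start (chr7:128523625-128523632).

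These matches were counted over the full 300-base windows, 250 bases before to 50 after the start, of 32851 promoters, and are given by gene. The 3-unit sequence, searched on both strands, was in the windows of 0.662% of all 27025 genes and of 2 of the 7 heat shock genes with a listed window. The overlapping Hsph1 windows hold the same match. Either of the 2-unit pairs, which are parts of the 3-unit sequence and read the same on both strands, was in 17.0% of all genes. Among the members, 6 of the 7 had such a pair, Dnajb1 being the other, while none of the 12 listed ER chaperone genes had one. The ER stress element was in 0.137% of all genes, in 7 of the 12 ER chaperone genes and in none of the 7 members. Windows were listed for Hspa1a, Hspa1b, Hspd1, Hsph1, Hspb1, Bag3 and Dnajb1, and not for Hspa8, Hspa9 and Hsp90aa1. A match describes the letters of a window and was not tested as a binding site.

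Fructose was accompanied by small differences in the heat shock genes, none of them 2-fold, in either genotype. In WT cells 6 of the 10 were higher with fructose and 4 lower, with a median log2 difference of 0.19, between -0.33 for Hsp90aa1 and 0.68 for Bag3. Over all 10814 genes detected in this comparison the median was -0.03 and 5138 were above 0, a share from which 6 of 10 cannot be set apart. A gene counted as detected when it was above the background, a log2 level of 4.764 set from olfactory receptor genes, on at least 1 array compared, and all 10 heat shock genes were above it on all 4 arrays, and each array had 10368 to 10447 genes above it. None of the 10 reached 2-fold. Of all detected genes 6.11% did so in either direction, so 0 of 10 was close to the background. At 1.5-fold, 2 of the 10, Bag3 and Hspa1a, were higher and none lower, against 20.3% of all detected genes in either direction, so the members' share was close to the background. In KO cells 6 were higher and 4 lower, with a median of 0.08, against -0.00 over 10752 detected genes. Of these detected genes 5314 were above 0, and 6 of 10 cannot be set apart from that share either. No member reached 2-fold (2.86% of all genes did) or 1.5-fold (11.9% did), shares from which 0 of 10 cannot be set apart. All of these values are log2 differences between 2 arrays and have no replicate check.

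**Figure D1:**
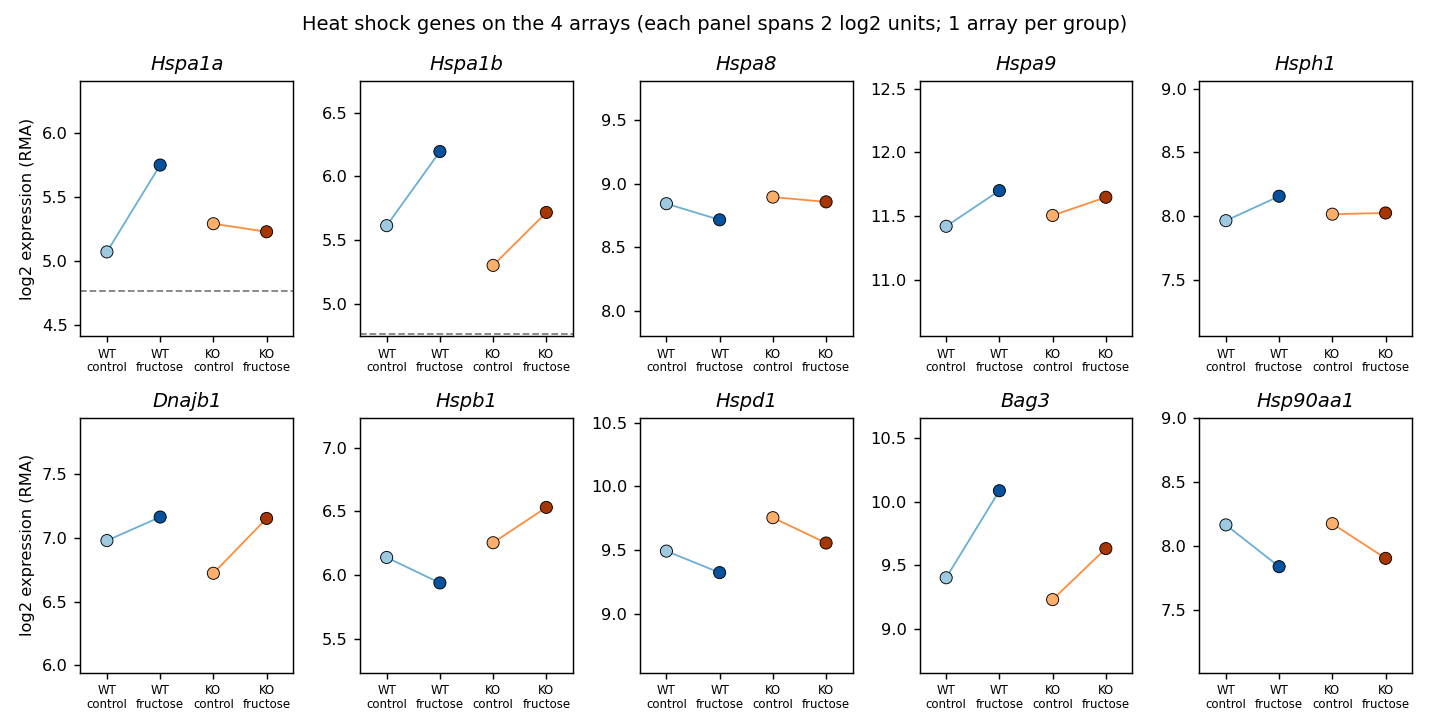
Log2 expression of the 10 heat shock genes on the 4 arrays (blue, WT; orange, KO; light, control; dark, fructose), 1 array per group; lines join control and fructose of a genotype and the dashed line is the background of 4.764. Each panel has its own axis spanning 2 log2 units, so slopes can be compared between genes and heights cannot; Bag3 and Hspa1b have the widest ranges, 0.85 and 0.89.

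The inducible cytosolic HSP70 genes, Hspa1a and Hspa1b, were dim and had some of the larger differences. They encode nearly the same protein, made in quantity after heat or other proteotoxic stress. Hspa1a had log2 levels of 5.07 without and 5.75 with fructose in WT cells, and 5.29 without and 5.23 with fructose in KO cells. Its level stood out on the WT fructose array alone, and the other arrays lay within 0.22 of each other. It was 1.60-fold higher with fructose in WT (log2 difference 0.68), where 7.12% of detected genes were at least as high, and differed by -0.06 in KO. Hspa1b had 5.61 without and 6.19 with fructose in WT, and 5.30 without and 5.72 with it in KO, so that each fructose array was above the control of its genotype. Its difference with fructose was 0.58 in WT (1.497-fold, just under the threshold of 1.5-fold, which is 0.585 in log2) and 0.42 in KO.

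These near-identical genes share sequence, and probes can pick up either transcript, so their separate values are uncertain. In KO the fructose differences of the pair were opposite in sign, -0.06 against 0.42. A further probe set assigned to both genes was below the background on all 4 arrays, at 3.60 without and 3.31 with fructose in WT, and 3.47 and 3.47 in KO. Its fructose differences were -0.29 in WT and 0.00 in KO. With it averaged in, the WT differences were 0.20 for Hspa1a and 0.15 for Hspa1b. So averaged, both genes lay below the background on all 4 arrays and would not count as detected.

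Hspa8 encodes HSC70, the constitutive cytosolic HSP70 that serves folding, clathrin uncoating and chaperone-mediated autophagy. It was nearly level, at 8.84 without and 8.72 with fructose in WT, and 8.90 without and 8.86 with it in KO. The fructose difference was -0.13 in WT and -0.04 in KO. The 4 probe sets assigned to it alone gave differences between -0.14 and -0.10 in WT and between -0.07 and 0.04 in KO. The brightest, with levels from 11.56 to 11.77, had -0.14 in WT and 0.04 in KO. A further probe set, assigned to Hspa8 and Snord14e, was above the background on all 4 arrays and was kept out of the averages. Its differences were 0.05 in WT and -0.15 in KO.

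Hsph1, Bag3 and Dnajb1 act on the HSP70 cycle. Bag3, an exchange factor that directs HSP70 clients to selective autophagy, had levels of 9.40 without and 10.08 with fructose in WT, and 9.23 without and 9.63 with it in KO. Each fructose array was above both control arrays. Bag3 was 1.61-fold higher with fructose in WT (0.68) and 1.32-fold in KO (0.40), and 7.04% and 12.6% of the detected genes were at least as high in these comparisons. It had the largest WT fructose difference of the 10, with a lowest level 4.47 log2 units above the background, against 0.31 for Hspa1a. Hsph1, the HSP110 exchange factor and disaggregase partner, had 7.96 without and 8.16 with fructose in WT, and 8.01 and 8.02 in KO. The WT fructose array was the highest, by 0.19 over WT control, and the KO difference was 0.01. Dnajb1, the main HSP40 partner of cytosolic HSP70 and a feedback repressor of HSF1, had 6.98, 7.16, 6.72 and 7.15 on the same arrays. It differed by 0.18 in WT and 0.43 in KO (1.35-fold), since the fructose levels of the genotypes were alike and the KO control level was the lowest of the 4.

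Hsp90aa1, the stress-inducible cytosolic HSP90, was the member with the lowest difference in both genotypes. Its levels were 8.16 without and 7.84 with fructose in WT, and 8.17 without and 7.90 with it in KO. The control arrays were alike and both fructose arrays lay below them, by -0.33 in WT (1.26-fold lower) and -0.27 in KO (1.21-fold lower). These values lay inside the range of most genes: 23.3% of detected genes in WT and 20.6% in KO were as low or lower.

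Hspb1, a small heat shock protein that also binds actin filaments, had averaged levels of 6.14 without and 5.94 with fructose in WT, and 6.25 without and 6.53 with it in KO. The fructose difference was -0.20 in WT and 0.28 in KO. These averages joined a bright and a dim probe set. The bright one had 8.05, 7.95, 8.19 and 8.30 on the same arrays, with fructose differences of -0.09 in WT and 0.12 in KO. The dim one stayed below the background on all 4 arrays, at 4.23, 3.93, 4.32 and 4.76, and carried the larger differences of -0.31 and 0.44. The signs were the same in both probe sets, and most of the size came from the dim one.

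**Figure D2:**
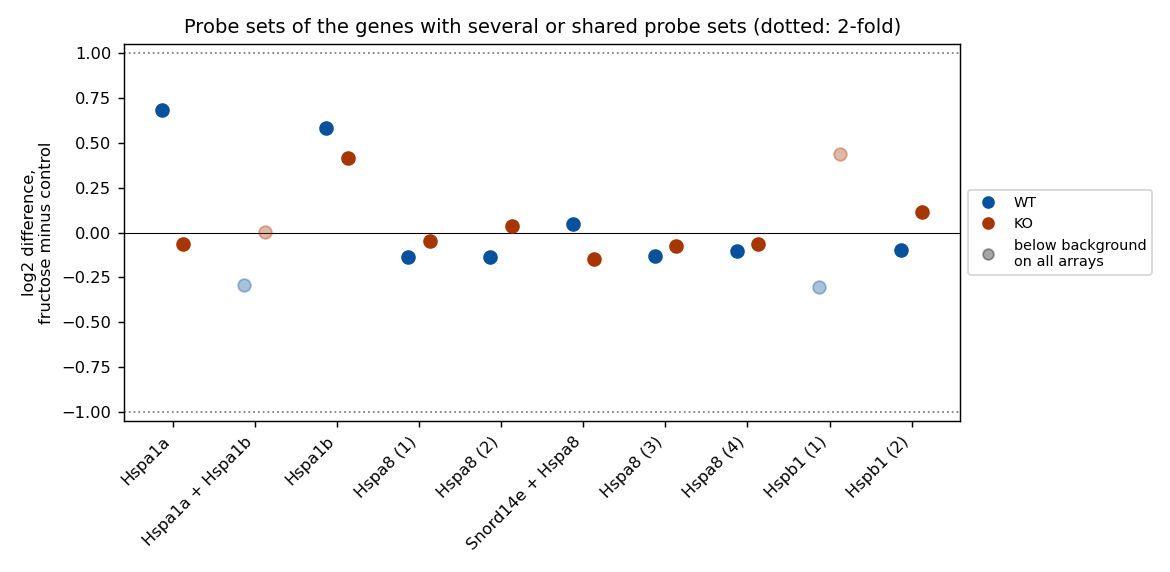
Log2 fructose differences (WT blue, KO brown) of each probe set of Hspa1a, Hspa1b, Hspa8 and Hspb1, including probe sets assigned to 2 genes; pale points are below the background on all 4 arrays. The Hspa8 probe sets lie between -0.15 and 0.05, while the dim Hspb1 probe set has -0.31 in WT and 0.44 in KO.

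The mitochondrial members went in different directions. Hspa9, or mortalin, the HSP70 of the matrix that pulls imported proteins across the inner membrane, had 11.42 without and 11.70 with fructose in WT, and 11.51 without and 11.65 with it in KO. Both fructose arrays were above both controls, by 0.28 in WT (1.21-fold) and 0.14 in KO. Hspd1, the matrix chaperonin HSP60, had 9.49 without and 9.32 with fructose in WT, and 9.75 and 9.56 in KO. It was lower with fructose by -0.17 in WT and -0.20 in KO, and each KO array was above the WT array of the same medium. Hspe1, the co-chaperonin whose gene lies head to head with Hspd1, had 8.35, 7.72, 8.34 and 8.07. It was lower with fructose by -0.63 in WT (1.55-fold) and -0.27 in KO, the same direction as Hspd1.

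The fructose comparisons of the genotypes use separate arrays. Of the 10 heat shock genes, 5 were higher in both genotypes (Hspa1b, Hspa9, Hsph1, Dnajb1 and Bag3), 3 were lower in both (Hspa8, Hspd1 and Hsp90aa1), and Hspa1a and Hspb1 had opposite signs. A shared sign in 8 of 10 was close to the 78.4% found over the 10516 genes detected in both comparisons. The KO values of Hspa8 and Hsph1 were near 0 and their signs turned, for Hspa8 with its brightest probe set (0.04) and for Hsph1 with repeated quantile normalization (-0.01).

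**Figure D3:**
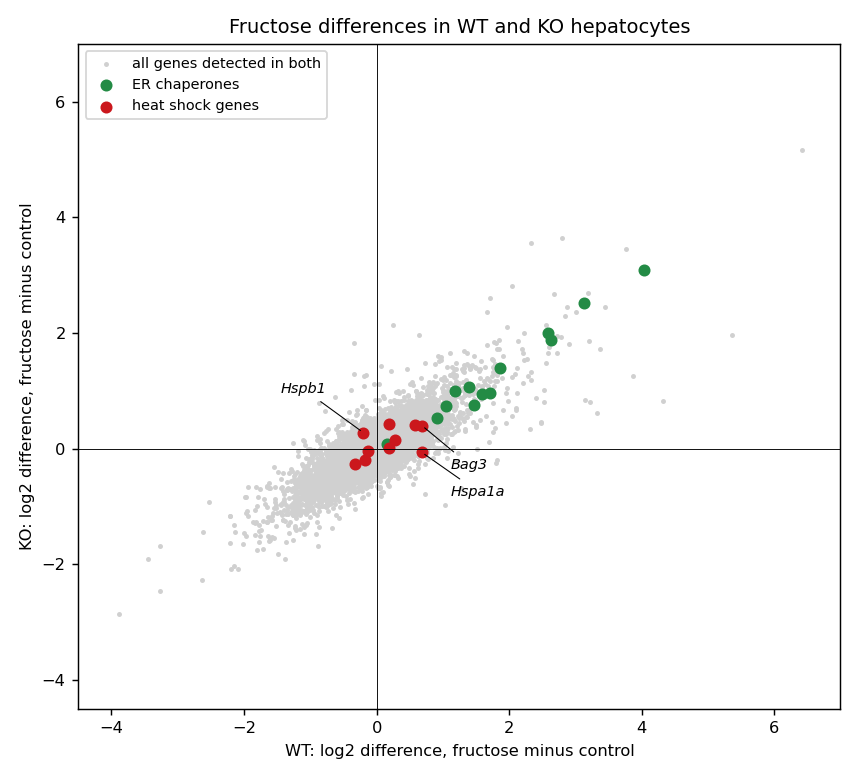
Log2 difference with fructose in WT (x) and in KO (y) for the 10516 genes detected in both comparisons (grey), the 10 heat shock genes (red) and 13 ER chaperones (green). The heat shock genes sit in the central cloud, between -0.33 and 0.68 in WT, and 12 of the 13 ER chaperones lie above every heat shock gene in both genotypes. Of all genes detected in each comparison, 7.04% in WT and 11.28% in KO were at least as high as the highest heat shock gene.

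The ER relatives of the same protein families differed far more with fructose. Of 13 ER chaperones with a value, 11 were at least 2-fold higher in WT (3.1% of all detected genes were; 3.01% were 2-fold lower) and 6 in KO (1.68% were; 1.18% were 2-fold lower), with medians of 1.59 and 0.99. The ER list was chosen with these differences known and serves only as the contrast. The 11 were Hspa5, Hsp90b1, Hyou1, Dnajb9, Dnajb11, Dnajc3, Sdf2l1, Calr, Creld2, Manf and Pdia6. Within the HSP70 family, Hspa5, the ER chaperone BiP, was higher by 1.39 in WT and 1.07 in KO, against -0.13 and -0.04 for Hspa8 and 0.28 and 0.14 for Hspa9. Within the HSP90 family, Hsp90b1, the ER chaperone GRP94, was higher by 1.86 and 1.39, while Hsp90aa1 had -0.33 and -0.27. Trap1, the mitochondrial HSP90, had -0.68 and -0.52. Within the HSP110 family, Hyou1 of the ER was higher by 2.63 and 1.87, against 0.19 and 0.01 for Hsph1. Among the HSP40 genes, Dnajb9 was higher by 2.59 and 2.00 and Dnajb11 by 1.59 and 0.95, against 0.18 and 0.43 for Dnajb1. In WT, 12 of the 13 ER chaperones were above the highest heat shock gene (0.68), and in KO 12 of 13 were above 0.43. Of all detected genes, 7.04% were at least as high as the highest heat shock gene in WT and 11.28% in KO. The exception among the ER chaperones was Canx, the membrane lectin calnexin, at 0.15 and 0.08. How far the compartments differ was not tested, as 1 array per group allows no test.

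**Figure D4:**
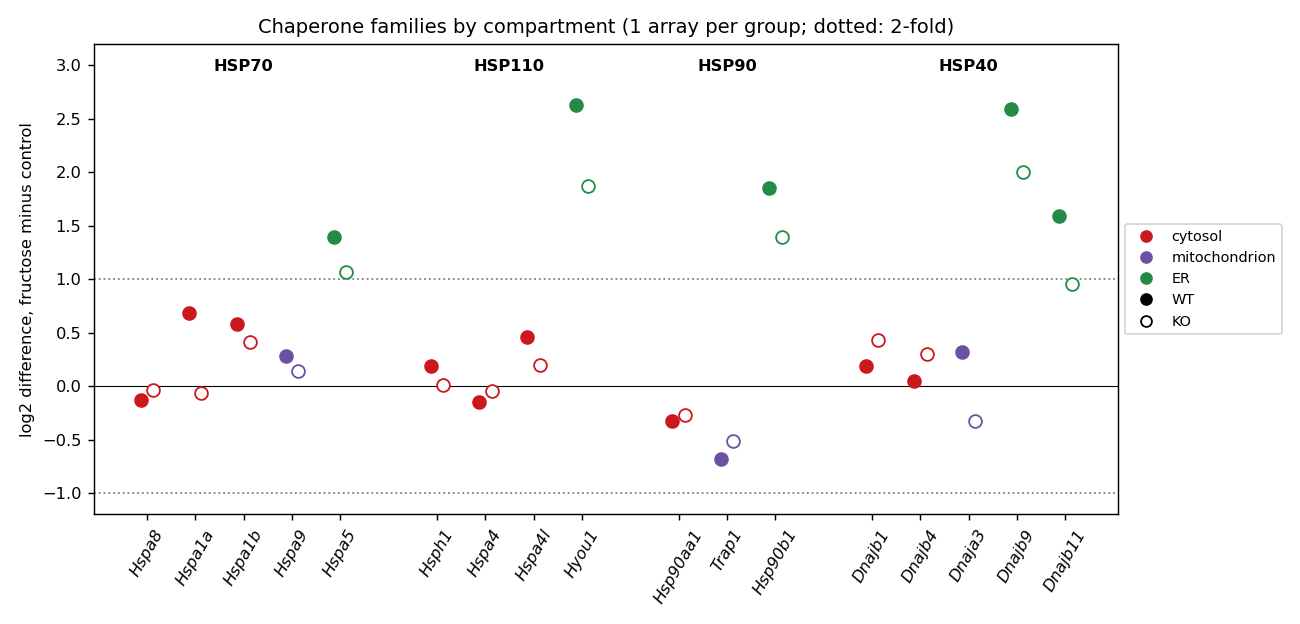
Log2 fructose differences of HSP70, HSP110, HSP90 and HSP40 genes by compartment (red, cytosol; purple, mitochondrion; green, ER) in WT (filled) and KO (open), 1 array per group; dotted lines mark 2-fold. In each family the ER genes stand highest, for example Hyou1 at 2.63 in WT against 0.19 for Hsph1; the counterparts shown were chosen with values known.

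Other cytosolic and mitochondrial chaperone genes were counted in 8 lists of 85 genes, 78 with a value. Of these, 67 were detected in each fructose comparison, and 0 of them were 2-fold higher or lower, against 6.11% of all detected genes in WT and 2.86% in KO. At 1.5-fold, 1 was higher and 5 lower in WT, and 2 were higher and 2 lower in KO, against 20.3% and 11.9% of all detected genes in either direction. With no test, these counts describe the lists and do not set them apart from other genes. The other HSP70 and HSP110 genes had a median of 0.07 in WT (-0.19 after repeated quantile normalization) and -0.13 in KO over 4 genes, with Hspa4l, an HSP110 gene, at 0.46 and 0.20. Other cytosolic HSP40 genes had medians of 0.19 and 0.25 over 10 genes. In each genotype 8 of them were above 0, where 5138 of 10814 detected genes were in WT and 5314 of 10752 in KO, and no test separates the list from these. Dnajc5, which encodes the vesicle co-chaperone cysteine string protein, went the other way at -0.63 and -0.65, and Dnajb4 had 0.05 and 0.30.

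The list of other HSP90 genes and HSP90 co-chaperones, which includes Trap1, had medians of -0.14 in WT and -0.12 in KO over 14 genes. In each genotype 10 of the 14 were below 0, where 5676 of 10814 detected genes were in WT and 5438 of 10752 in KO. Stip1, the adaptor that passes clients from HSP70 to HSP90, had -0.13 and 0.03. Mitochondrial chaperones and proteases had medians of -0.02 and 0.01 over 15 genes, spread from -0.83 for Dnajc15, a DNAJ protein of the inner membrane, to 0.75 for Clpx, the unfoldase of the matrix protease ClpXP, in WT. In KO these genes had -0.42 and 0.68. Clpx was chosen after its value was seen. Subunits of the cytosolic chaperonin TRiC and of prefoldin had medians of -0.10 and -0.14 over 13 genes, with Pfdn1 at -0.51 and -0.15.

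The other small heat shock genes detected were Hspb8 and Hspb6. Hspb8, the partner of Bag3 in selective autophagy, had 9.63 without and 10.15 with fructose in WT, and 9.64 and 10.17 in KO. Its difference with fructose was 0.52 in WT and 0.53 in KO, so both fructose arrays were above both controls, as for Bag3. Hspb6, a small heat shock protein known from muscle, had 0.12 in WT and -0.24 in KO, the opposite sign to Hspb8 in KO. Cryab, the lens and muscle alpha-B crystallin, was below the background on all 4 arrays. Other BAG and exchange factor genes had medians of 0.16 and 0.13 over 6 genes, with Hspbp1, an HSP70 exchange factor, at -0.63 and -0.44. Of the heat shock factor list 3 genes were detected. Hsf2, a factor that can form trimers with HSF1, had 0.49 and 0.32, and Hsbp1, whose small product binds heat shock factor trimers, had -0.53 and -0.32. Hsf1 and Hsp90ab1 were not analysed here.

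**Figure D5:**
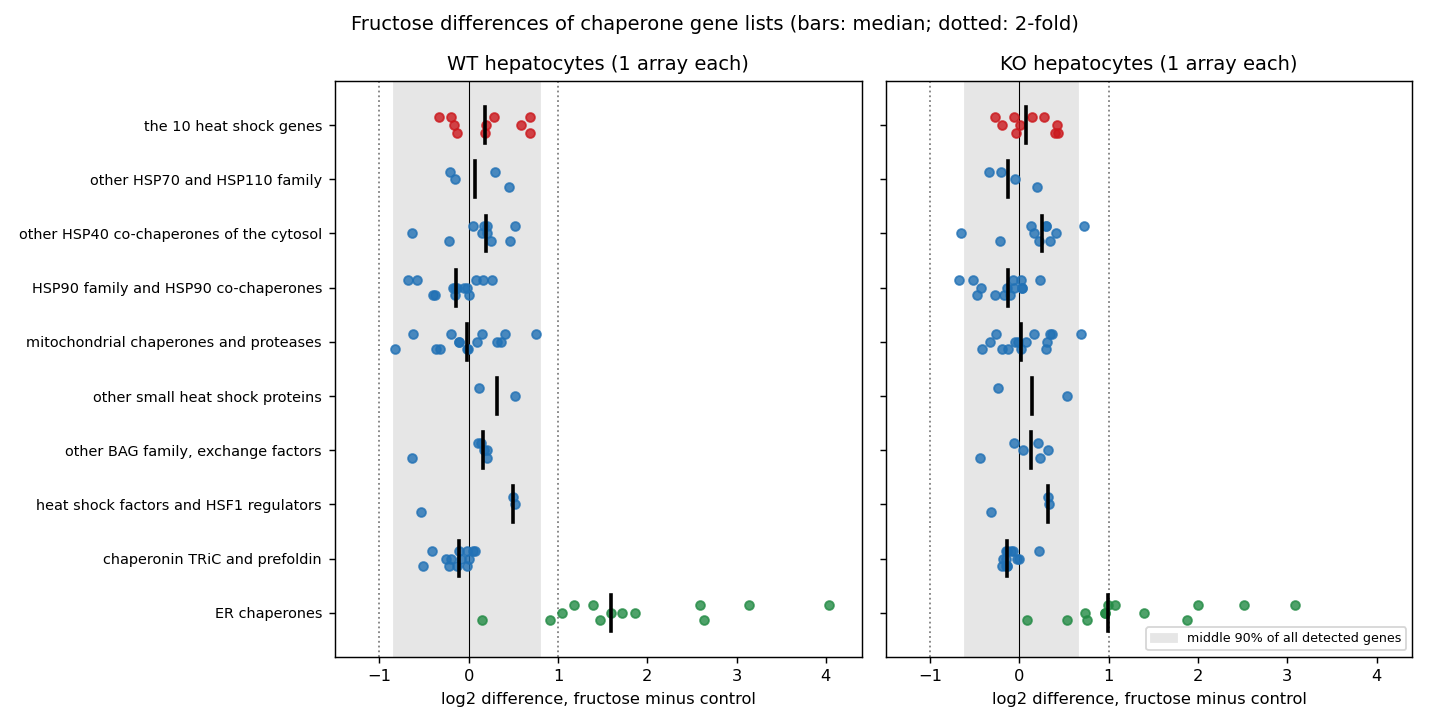
Log2 fructose differences in WT (left) and KO (right) for each detected gene. Colours mark the 10 heat shock genes (red), 8 other cytosolic and mitochondrial chaperone lists (blue) and ER chaperones (green). Black bars are medians and dotted lines mark 2-fold. The grey band runs from the 5th to the 95th percentile of the 10516 genes detected in both comparisons. Medians of the blue lists lie between -0.14 and 0.49 in WT, and that of the ER chaperones is 1.59.

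The absence of Chrebp was accompanied by small differences in control medium. KO minus WT had a median of 0.05 over the 10 genes, against -0.01 over 10720 detected genes, and ranged from -0.31 for Hspa1b to 0.26 for Hspd1. None reached 2-fold, as did 0.233% of all genes, or 1.5-fold, as did 1.58%. Hspd1 was 1.20-fold higher in KO and Dnajb1 1.19-fold lower (-0.26). These comparisons use the same control arrays as the fructose comparisons, so they are not independent of them.

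In fructose medium KO minus WT had a median of -0.03, against 0.01 over 10688 detected genes. None reached 2-fold (1.28% of all genes did), and 1 of 10 reached 1.5-fold (5.31% of all genes did). That gene was Hspb1, 1.51-fold higher in KO by its averaged probe sets (0.59). By its bright probe set alone the difference was 0.35. Hspa1a (-0.52), Hspa1b (-0.48) and Bag3 (-0.45) were lower in KO, by 1.44-fold, 1.39-fold and 1.37-fold. With the shared probe set averaged in, Hspa1a had -0.18 and Hspa1b -0.16, but both averages lay below the background on every array. Hsph1 had -0.13, Hspa8 0.14 and Hspd1 0.23. Hspa9, Dnajb1 and Hsp90aa1 differed by less than 0.1, at -0.05, -0.01 and 0.07. The ER chaperones, a list chosen with its fructose differences known, had a median of -0.40 in the same comparison. Of them 0 of 13 were above 0, where 5608 of 10688 detected genes were. The WT fructose array used here also gave those fructose differences, so the values are not independent.

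The difference between the fructose effects, KO minus WT, had a median of -0.08 over the 10 genes, against 0.03 over 11050 detected genes. None differed by 2-fold, as did 1.03% of all genes. Hspa1a was past 1.5-fold (-0.74), where 5.46% of all genes were, and the next were Hspb1 at 0.48, Bag3 at -0.28 and Dnajb1 at 0.25. With the probe set shared with Hspa1b averaged in, the Hspa1a value was -0.23, under 1.5-fold. So averaged, neither Hspa1a nor Hspa1b was above the background on any array. The value of Hspb1 was 0.21 by its bright probe set, and that of Hspa1b, -0.17, turned to 0.06 with the shared probe set.

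Markers of other liver cells were measured beside these genotype differences. All 8 hepatocyte markers with a value were above the background on every array, with mean levels of 10.61 without and 10.76 with fructose in WT, and 10.61 and 10.84 in KO. They were not all level: the fructose difference of Alb, the albumin gene, was -0.05 in WT and 0.02 in KO, that of Cps1, a urea cycle enzyme gene, 1.41 and 1.40, and that of Hnf4a, a hepatocyte transcription factor gene, -0.75 and -0.50. All 8 macrophage markers were above it on at least 1 array, and their mean level was 6.58, 6.68, 6.19 and 6.21, lower on both KO arrays. The log2 of their summed level was 11.37 and 11.16 in WT and 11.33 and 11.41 in KO. Cd68, the brightest of them, was higher in KO in both media, at 11.04 and 10.79 in WT and 11.12 and 11.22 in KO. The other macrophage markers were lower in KO in both media. Of 7 sinusoidal endothelial markers 5 were above the background, with mean levels of 6.03, 5.95, 5.70 and 5.57, and log2 summed levels of 9.64, 9.49, 9.13 and 9.03. Stab2 and Clec4g were below it on all arrays. Of 6 stellate cell markers 3, and of 4 cholangiocyte markers 1, were above it on any array. The cholangiocyte marker above it was Sox9, at 9.82 without and 10.30 with fructose in WT, and 9.39 and 10.21 in KO. Krt19, Krt7 and Epcam were below it on all arrays, so the markers of this cell type did not agree. The part of such cells in the KO minus WT values of the heat shock genes was not tested, and fewer cells of a type cannot be told apart from less RNA per cell.

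Profiles most like those of the members were found by the Euclidean distance between log2 levels over the 4 arrays, each minus the gene's own mean, among 11040 detected genes. Nearest to the mean profile of the 10 genes were Zfp106 (distance 0.0030), Fdft1 (0.014) and Ddrgk1 (0.016), followed by Dcxr and Gm9292 (0.019 each). Nearest to Bag3 were Slc7a6 (0.028), an amino acid transporter gene, Jade1 (0.028), Insc (0.038), Zbed5 (0.039) and Ddx3x (0.049), an RNA helicase gene. Slc7a6 had 6.02 without and 6.67 with fructose in WT, and 5.83 and 6.21 in KO, with fructose differences of 0.65 and 0.39, against 0.68 and 0.40 for Bag3. With 4 arrays and 11040 genes, many profiles lie close together.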

How the data were processed

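RNA from 4 groups of primary mouse hepatocytes was measured on 1-colour whole-transcript arrays, 1 array per group, from 400 ng of total RNA each. The authors deposited 1 log2 value per probe set and array. The submitters' processing notes name RMA (robust multi-array average) and R 3.4.0. RMA makes the arrays' distributions alike, so a shift shared by all genes cannot be seen. The genome build behind the array's annotation was not found in the labels.

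Of 41345 probe sets, 23521 had 1 gene symbol in the platform's table, 1814 had several and 16010 were unnamed here. Symbols were updated by Entrez number (23328 matched a RefSeq table of GRCm38.p6). Probe sets of a gene were averaged in log2, giving 22180 genes. The background was the 95th percentile of the mean levels of 1105 olfactory receptor genes, 4.764. Differences of log2 values were taken with Python 3.11.15, pandas 2.3.3 and numpy 2.4.6, and the loess alternative with statsmodels 0.14.6. A gene was called at 2-fold. There is no test with 1 array per group, and precision is limited by how few arrays there are. Counts and medians were tested on simulated data with planted shifts. These data copied the WT control array to every group, without noise, and shifted genes well above the background by more than 2-fold. The test therefore checks the counting alone, and not how precise small or dim differences are.

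The 10 genes and the 9 chaperone lists (99 genes, 91 with a value) were chosen with earlier results of these data known. Named were the 10 genes, Mlxipl, 9 counterparts and genes of each list past 2-fold or with the largest WT fructose difference. The 5 profiles nearest to the mean of the 10 genes and the 5 nearest to Bag3 were also named. Chosen after their values were seen were Clpx, Hspb6, Canx, Dnaja3, Alb, Cps1, Hnf4a, Cd68 and Sox9. Promoter windows came from RefSeq, for 7 of the 10 genes and 12 of 14 ER chaperones.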

Additional observations from a re-analysis of the deposited data

Results flagged for a closer look

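Hspa1a, Hspb1 and Stip1 had fructose differences of opposite sign in WT and KO cells. The screen covered the 10 genes and the other genes named by rule, and list genes outside it had opposite signs too, such as Dnaja3, with 0.32 in WT and -0.33 in KO. The KO fructose effect minus the WT one was -0.74 for Hspa1a, 0.48 for Hspb1 and 0.15 for Stip1 (log2). Each effect rests on 1 array per group and the difference was not tested. The Hspa1a effect in KO was -0.06, and that of Stip1 was 0.03, both close to 0. For Hspb1 the bright probe set alone gave 0.21. For Hspa1a the value was -0.23, under 1.5-fold, with the probe set shared with Hspa1b averaged in. That average lay below the background on every array.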

How the results depend on the processing

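With 1 array per group no replicate can be left out, and probe sets near the background limit Hspa1a, Hspa1b and Hspb1. No paired analysis was possible because each group has 1 array and the labels give no replicate numbers. A value counted as kept when it moved by no more than 0.1 in log2, or a count within 1.5 times.

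The medians of the 10 genes kept their value in 94 of 95 alternatives, but this tally does not measure stability. All 10 genes were above the background, so dropping the dim-gene filter or raising values to the background could not move a median. The tolerance of 0.1 was larger than every median but the WT fructose one, so a turned sign could count as kept. The medians ranged from 0.05 to 0.25 in WT and from 0.01 to 0.14 in KO for fructose, from 0.01 to 0.08 and from -0.06 to 0.03 for KO minus WT, first control and then fructose medium, and from -0.14 to 0.00 for the difference of effects. The exception to the tally was the WT fructose median of 0.047 with multi-gene probe sets counted, taken over the 8 genes then detected. Hspa1a and Hspa1b, averaged with their shared probe set, fell below the background and were not counted in that setting. Counts of the 10 genes moved only at 1.5-fold, to 2 for WT fructose, 1 for KO minus WT in fructose and 1 for the difference of effects. Single genes kept 288 of 300 values, and the moved ones included 0.20 for Hspa1a in WT with the shared probe set and 0.35 for Hspb1, KO minus WT in fructose, with its brightest probe set. Many of the 300 could not move. Raising values to the background changed no gene, and taking the brightest probe set could change only Hspa8 and Hspb1. Counting multi-gene probe sets could change only Hspa1a, Hspa1b and Hspa8.

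Counts of all genes at 1.5-fold and 3-fold were 2195 and 160 for WT fructose, 1275 and 65 for KO fructose, 169 and 2 for the genotype difference in control medium, 568 and 29 for that in fructose, and 603 and 22 for the difference of effects, which the threshold itself sets.

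Of 360 list medians 336 kept their value, some of them under settings that could not move them. For WT fructose the other HSP70 and HSP110 genes (0.07) had -0.19 with quantile normalization, -0.12 with loess, -0.059 without the filter on dim genes and -0.075 with values raised to the background. Small heat shock genes had 0.048 without the filter and 0.17 with the brightest probe set, BAG genes 0.033 as a mean, heat shock factors 0.22 without the filter and 0.16 as a mean, and ER chaperones 1.82 as a mean. For KO fructose the other HSP70 genes had 0.076 and BAG genes -0.057 under a stricter filter. Small heat shock genes had -0.088 without the filter and -0.0645 with the brightest probe set, heat shock factors -0.085 without the filter and 0.11 as a mean, and ER chaperones 1.30 as a mean. For KO minus WT in control, small heat shock genes had 0.013 without the filter and 0.0099 with the brightest probe set. In fructose BAG genes had 0.12 under a stricter filter. For the difference of effects the other HSP70 genes had 0.048 and small heat shock genes -0.055 without the filter, BAG genes 0.15 under a stricter filter, and heat shock factors -0.049 as a mean. Beyond what the settings themselves do, such as counting fewer or dimmer genes, the cause was not tested.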
